A study of Mus musculus with 16 samples.

Results

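The immediate early genes Fos, Fosb, Jun, Junb, Egr1, Egr2, Egr3, Ier2 and Nr4a1 were followed in skeletal muscle of a mouse model of recessive centronuclear myopathy. They were chosen by name, as the rows of the gene count table whose Ensembl identifiers carry these symbols in the GENCODE annotation of GRCm38, and they were 9 of 29730 genes. RNA of the tibialis anterior, which lifts the foot, was sequenced in 16 male C57BL/6N mice aged 7 weeks, with 4 mice in each of 4 groups. WT_PBS mice were wild type and received phosphate-buffered saline. WT_ASO mice were wild type and received ASO1, an antisense oligonucleotide, a man-made nucleic acid that binds an mRNA by base pairing and leads to its decay. KO_PBS mice carried the Bin1mck-/- knockout and received saline, and KO_ASO mice carried it and received ASO1. The series title names Dnm2, which codes for the membrane-cutting GTPase dynamin 2, as the target of ASO1. Bin1 codes for amphiphysin 2, a protein that bends membranes, and mck is the usual short form for the muscle creatine kinase promoter, which is active in skeletal and heart muscle. The part of Bin1 that was deleted, the dose and the schedule of injection could not be taken from the sources used here. Nothing in the labels says that replicates were separate litters or batches, so P values measure the spread between these samples.

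Immediate early genes are switched on within minutes of a stimulus, from transcription factors that already sit in the cell and without new protein synthesis. Their mRNAs are short-lived, and most of their proteins are transcription factors that set off a second wave of genes. In skeletal muscle they are known to respond to contraction, stretch, injury and handling. Fos and Jun family proteins pair into the dimer AP-1, Egr proteins are zinc finger factors, and Nr4a1 is an orphan nuclear receptor.

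The sequence before the transcription start is shown for the members in which a searched motif was found, because these genes are known for factor sites upstream of it. RefSeq promoters of GRCm38.p6 were used for 6 of the 9 genes, Fos, Fosb, Jun, Junb, Egr2 and Nr4a1. No promoter of Egr1, Egr3 or Ier2 was used, so no motif was searched for in those genes. Each run below holds the 250 bases before the start, 5′ to 3′ on the strand of the gene, with motif matches on either strand in capitals.
Fos, chr12:85473640-85473889, plus strand: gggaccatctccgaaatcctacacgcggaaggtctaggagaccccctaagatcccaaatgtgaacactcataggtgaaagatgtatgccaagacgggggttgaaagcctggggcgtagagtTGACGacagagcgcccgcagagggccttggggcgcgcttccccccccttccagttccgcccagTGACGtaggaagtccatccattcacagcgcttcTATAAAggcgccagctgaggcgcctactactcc
Fosb, chr7:19310046-19310295, minus strand: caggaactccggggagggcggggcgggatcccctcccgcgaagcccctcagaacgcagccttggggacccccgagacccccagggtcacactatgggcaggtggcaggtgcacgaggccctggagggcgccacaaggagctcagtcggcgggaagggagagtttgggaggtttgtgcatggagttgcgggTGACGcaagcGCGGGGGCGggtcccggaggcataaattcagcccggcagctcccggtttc
Junb, chr8:84978749-84978998, minus strand: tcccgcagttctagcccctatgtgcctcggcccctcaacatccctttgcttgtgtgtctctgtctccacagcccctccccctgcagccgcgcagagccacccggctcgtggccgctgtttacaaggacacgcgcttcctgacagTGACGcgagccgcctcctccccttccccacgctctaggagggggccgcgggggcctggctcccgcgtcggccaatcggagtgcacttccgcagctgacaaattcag
Nr4a1, chr15:101266596-101266845, plus strand: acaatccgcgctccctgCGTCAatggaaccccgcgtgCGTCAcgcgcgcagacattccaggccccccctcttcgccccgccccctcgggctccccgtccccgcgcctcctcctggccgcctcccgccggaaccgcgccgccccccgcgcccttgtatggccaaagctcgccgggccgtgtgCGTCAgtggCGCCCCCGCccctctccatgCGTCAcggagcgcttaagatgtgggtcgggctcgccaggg

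The capitals mark a cyclic AMP response element half-site (TGACG), an Egr site (GCGNGGGCG) or a TATA box (TATAAA). The half-site was found in 4 of the 6 members, Fos, Fosb, Junb and Nr4a1, and in 17.9% of 27025 RefSeq promoters cut to the same 250 bases. Fos held 2 copies and Nr4a1 held 4, all 4 of which read CGTCA on the printed strand. The Egr site was found in Fosb and Nr4a1 and in 4.65% of all promoters, and the TATA box in Fos and in 13.0% of all promoters. The CArG box, which binds serum response factor, the whole cyclic AMP response element (TGACGTCA) and the AP-1 site (TGANTCA) were found in 0 of the 6 windows and in 1.40%, 1.62% and 6.87% of all promoters. The half-site is part of the whole element, and a match describes the letters in this window only. Sites farther from the start, or with letters that differ from these patterns, were not searched. The counts, those of 0 included, do not cover Egr1, Egr3 and Ier2, and could differ with them. RefSeq and GENCODE place some starts differently. The window of Fosb reaches 6 bases and that of Egr2 24 bases into the GENCODE model, that of Junb ends 30 bases before it, and the RefSeq start of Nr4a1, where its window ends, lies 12577 bases after the first start of its GENCODE model.

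Total counts per sample ran from 27591900 to 40862854, and 14960 of the genes, the 9 members among them, passed the filter on low counts. Levels are given as CPM, read counts scaled to library size after trimmed mean of M values (TMM) normalization. Bin1 measured 40.8 to 47.7 CPM in KO_PBS and 31.7 to 42.9 CPM in KO_ASO, below its 462.6 to 619.8 CPM in the wild-type samples. Dnm2 measured 23.1 to 29.4 CPM in WT_ASO and 20.7 to 31.1 CPM in KO_ASO, against 50.2 to 67.7 CPM in the saline groups. The 7 markers of fast myofibres were present in every sample. They summed to 122325 to 153649 CPM in KO_PBS, below the 171865 to 218233 CPM of WT_PBS. In bulk tissue, fewer cells of a type and less RNA per cell cannot be told apart. One library, WT_PBS replicate 3, was the highest of its group for 7 of the 9 members, so the members' fits are also given without it.

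The members differed widely in level. Per kilobase of exon and averaged over 16 samples, Nr4a1 stood at 70.1 CPM, Jun at 18.6, Egr1 at 5.13, Fos at 4.27, Ier2 at 3.68, Junb at 2.17, Fosb at 0.437, Egr2 at 0.374 and Egr3 at 0.198. On this scale Nr4a1 was above Jun in 16 of 16 samples, and Jun was above Egr1 in 15 of 16. Fos was above Ier2 in 7 of 16 samples and Egr1 above Fos in 12 of 16, so the order of these 3 genes was not fixed. Fosb was above Egr2 in 2 of 16 samples, and its higher mean came from WT_PBS replicate 3. Between the lowest and the highest of all 16 samples, CPM differed 69.0-fold for Fosb, 13.9-fold for Egr1, 11.2-fold for Egr3, 10.7-fold for Fos, 7.59-fold for Junb, 5.42-fold for Nr4a1, 5.15-fold for Egr2, 3.09-fold for Ier2 and 2.38-fold for Jun. Without WT_PBS replicate 3 the range of Fosb was 7.97-fold, below those of Egr1, Egr3 and Fos, which that library did not set. Egr3 rested on 7 to 86 reads a sample and Egr2 on 21 to 119, whereas Nr4a1 had 3590 to 16567.

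**Figure D1:**
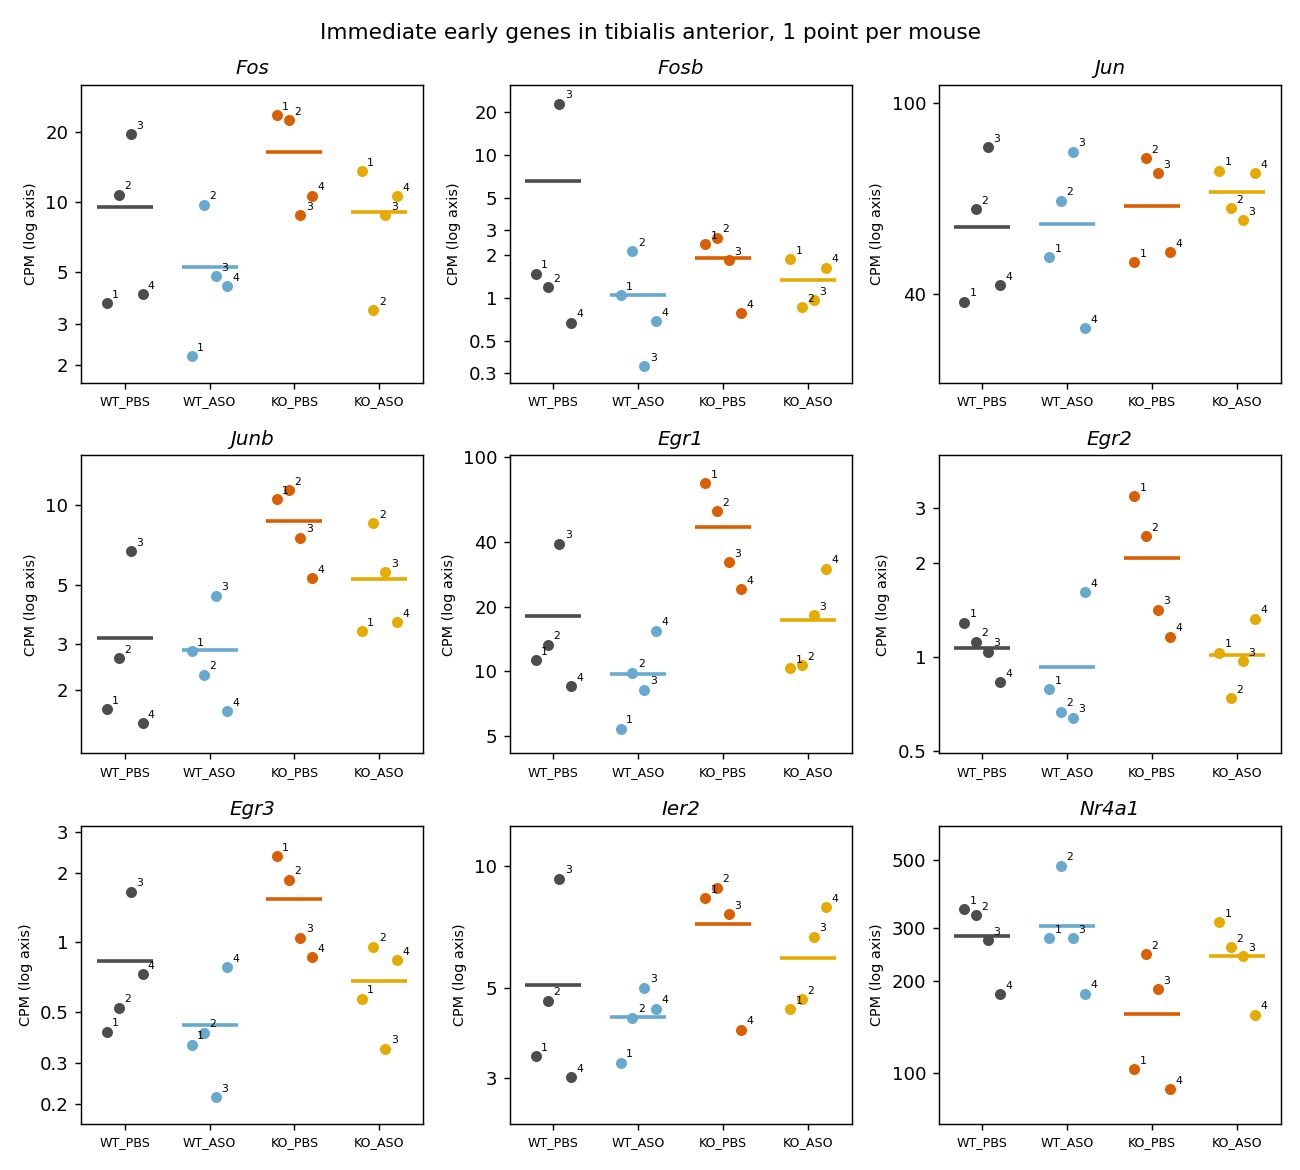
CPM on a log axis for each of the 9 genes, with 1 numbered point per mouse and a bar at the mean of each group of 4. WT_PBS replicate 3 lies at 23.1 CPM for Fosb and at 39.4 CPM for Egr1, above the other mice of its group, and KO_PBS and WT_PBS overlap for each gene.

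Fos codes for the founding Fos protein of AP-1 (ENSMUSG00000021250, chr12:85473890-85477273, plus strand, GRCm38). It measured 3.69, 10.8, 19.5 and 4.04 CPM in WT_PBS replicates 1 to 4 and 2.19, 9.72, 4.83 and 4.36 CPM in WT_ASO. In KO_PBS it measured 23.5, 22.3, 8.78 and 10.7 CPM, and in KO_ASO 13.6, 3.45, 8.76 and 10.6 CPM. KO_PBS replicates 1 and 2 and WT_PBS replicate 3 were the high samples, and the groups overlapped in each comparison. Fosb, which codes for another partner of Jun proteins (ENSMUSG00000003545, chr7:19302696-19310051, minus strand, GRCm38), measured 1.49, 1.19, 23.1 and 0.677 CPM in WT_PBS and 1.05, 2.14, 0.334 and 0.695 CPM in WT_ASO. Its values were 2.40, 2.66, 1.85 and 0.789 CPM in KO_PBS and 1.87, 0.863, 0.969 and 1.64 CPM in KO_ASO. A single library, WT_PBS replicate 3, was high for Fosb, and the other 15 samples lay at or below 2.66 CPM.

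Jun codes for the main Jun protein of AP-1 (ENSMUSG00000052684, chr4:95049034-95052222, minus strand, GRCm38). It measured 38.5, 60.2, 80.9 and 41.7 CPM in WT_PBS and 47.7, 62.7, 79.2 and 34.0 CPM in WT_ASO. In the knockout samples Jun stood at 46.6, 76.9, 71.5 and 48.9 CPM (KO_PBS) and 72.4, 60.4, 57.0 and 71.5 CPM (KO_ASO). Jun had the narrowest range of the members, and its groups overlapped throughout. Junb, whose protein often counters that of Jun (ENSMUSG00000052837, chr8:84974484-84978718, minus strand, GRCm38), measured 1.70, 2.64, 6.72 and 1.50 CPM in WT_PBS and 2.81, 2.29, 4.55 and 1.67 CPM in WT_ASO. It stood at 10.5, 11.4, 7.53 and 5.30 CPM in KO_PBS and 3.34, 8.56, 5.57 and 3.62 CPM in KO_ASO. For Junb, 3 of the 4 KO_PBS samples were above every WT_PBS sample, and the fourth lay below WT_PBS replicate 3. Exons of Junb share 173 bases with Prdx2 on the other strand (a mean of 4448 counts against 174 for Junb), and those of Jun share 232 bases with Junos. The libraries were stranded, but the sources used here do not give the strand setting of the counting, so reads of these pairs may not be told apart. Prdx2 itself had a log2FC of 0.20 (SE 0.13, edgeR adjusted P = 0.348) between KO_PBS and WT_PBS.

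Egr1 codes for the most abundant of the 3 Egr factors here (ENSMUSG00000038418, chr18:34859823-34864984, plus strand, GRCm38). It measured 11.3, 13.3, 39.4 and 8.52 CPM in WT_PBS and 5.40, 9.84, 8.23 and 15.5 CPM in WT_ASO. Its levels were 75.2, 55.8, 32.2 and 24.1 CPM in KO_PBS and 10.3, 10.7, 18.2 and 30.0 CPM in KO_ASO. The 4 KO_PBS samples were above every WT_ASO sample and above 3 of the 4 WT_PBS samples, and 2 of them were also above WT_PBS replicate 3. Egr2, known for its role in Schwann cell myelination (ENSMUSG00000037868, chr10:67535475-67542188, plus strand, GRCm38), measured 1.29, 1.12, 1.04 and 0.827 CPM in WT_PBS and 0.785, 0.665, 0.638 and 1.61 CPM in WT_ASO. Values of Egr2 were 3.28, 2.44, 1.41 and 1.16 CPM in KO_PBS and 1.03, 0.735, 0.969 and 1.32 CPM in KO_ASO. Here 3 of the 4 KO_PBS samples were above every WT_PBS sample, and WT_PBS replicate 3 was not high. Egr3, which is needed for muscle spindles (ENSMUSG00000033730, chr14:70077203-70082614, plus strand, GRCm38), measured 0.409, 0.521, 1.66 and 0.727 CPM in WT_PBS and 0.360, 0.405, 0.213 and 0.778 CPM in WT_ASO. Its values were 2.37, 1.87, 1.05 and 0.863 CPM in KO_PBS and 0.570, 0.959, 0.346 and 0.836 CPM in KO_ASO. KO_PBS replicates 1 and 2 were the high samples for Egr3, as they were for Egr1 and Egr2.

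Ier2 codes for a small nuclear protein (ENSMUSG00000053560, chr8:84661331-84662852, minus strand, GRCm38). It measured 3.39, 4.66, 9.29 and 3.01 CPM in WT_PBS and 3.27, 4.22, 5.01 and 4.45 CPM in WT_ASO. In KO_PBS it stood at 8.33, 8.84, 7.61 and 3.94 CPM, and in KO_ASO at 4.43, 4.70, 6.68 and 7.91 CPM. The highest Ier2 value of all samples was that of WT_PBS replicate 3. Nr4a1, a nuclear receptor with known roles in muscle metabolism (ENSMUSG00000023034, chr15:101254269-101274795, plus strand, GRCm38), measured 344, 329, 272 and 181 CPM in WT_PBS and 276, 479, 277 and 182 CPM in WT_ASO. It measured 103, 246, 188 and 88.5 CPM in KO_PBS and 313, 259, 242 and 155 CPM in KO_ASO. KO_PBS replicates 1 and 4 were the low samples for Nr4a1, and the highest was WT_ASO replicate 2.

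The comparison of KO_PBS with WT_PBS asked whether these genes differed with the loss of Bin1. In edgeR, Junb was the 1 member of 9 that passed the test, rising from 3.14 ± 2.44 to 8.70 ± 2.81 CPM (SD, n = 4 each), with a log2FC of 1.46 (SE 0.46, adjusted P = 0.0491). Of all 14960 genes tested 12.6% were called in this comparison, 7.43% as higher and 5.12% as lower, so a count of 1 of 9 is near the background. DESeq2 called 2 members, Junb and Egr2, where it called 16.9% of all genes. With sample quality weights limma-voom called 4, where it called 18.2% of all genes: Junb, Egr1 (log2FC of 1.78, adjusted P = 0.00595), Egr2 (log2FC of 0.97, adjusted P = 0.0336) and Ier2 (log2FC of 0.83, adjusted P = 0.0486). At an unadjusted P under 0.05 there were 4 members, Junb, Egr1, Egr2 and Nr4a1, where 27.3% of all genes reached it. Egr1 had a log2FC of 1.37 (SE 0.53, adjusted P = 0.109), and Egr2 a log2FC of 0.95 (SE 0.34, adjusted P = 0.0768). Nr4a1 had a log2FC of -0.85 (SE 0.35, adjusted P = 0.127). KO_PBS and WT_PBS overlapped for all 9 members, where 10.5% of all genes had KO_PBS wholly above WT_PBS and 9.85% wholly below. Egr3 had a log2FC of 0.86 (SE 0.46, adjusted P = 0.238), Fos a log2FC of 0.78 (SE 0.58, adjusted P = 0.427) and Ier2 a log2FC of 0.49 (SE 0.33, adjusted P = 0.358). Jun had a log2FC of 0.14 (SE 0.26, adjusted P = 0.782). Fosb stood at a log2FC of -1.79 (SE 0.93, adjusted P = 0.232). Over the 9 members the median log2FC was 0.78, against -0.01 over all genes tested, and 7 of 9 had a log2FC above 0 where 48.5% of all genes did. The members varied together between mice of a group (median r of 0.44 over pairs), so they are not separate observations. Without scaling beyond library totals the median of all genes moved to 0.14, the 9 members kept their signs, and Egr2 also passed the test (adjusted P = 0.0447).

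The edgeR call for Junb was close to the threshold, while DESeq2 (adjusted P = 0.00848) and limma-voom (adjusted P = 0.00284) placed it further past it. In edgeR the call was lost without any 1 of 10 of the 16 libraries, namely replicates 1, 2 and 3 of KO_PBS, replicates 1, 2 and 4 of WT_PBS, replicates 1 and 3 of KO_ASO or replicates 1 and 2 of WT_ASO, with adjusted P values from 0.0518 to 0.135 and log2FC from 1.22 to 1.52. It was also lost with no filter on low counts (adjusted P = 0.146) and when only the compared groups were fitted (adjusted P = 0.0560), with a log2FC of 1.46 in both. For single members the exact permutation test, two-sided with 4 samples against 4, gave P = 0.0571 for Junb and for Egr2. The smallest P it can give is 0.0286, so a single member could not pass 0.05 after adjustment over the 45 tests run, and its adjusted values do not bear on the call.

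WT_PBS replicate 3 weighed on these values. Without it, Junb stood at a log2FC of 2.17 (SE 0.41, edgeR adjusted P = 0.00445), Egr1 at 2.09 (SE 0.49, adjusted P = 0.0175) and Ier2 at 0.97 (SE 0.28, adjusted P = 0.0381). Those 3 of 9 members were then called, where 9.64% of 15109 genes were. The library was singled out as the highest of its group for 7 members, so leaving it out raises their log2FC by construction. This count therefore cannot be read against the share of all genes. Fos moved to a log2FC of 1.42 (SE 0.58, adjusted P = 0.144) and Egr3 to 1.45 (SE 0.45, adjusted P = 0.0559). Fosb turned from -1.79 to 0.78 (SE 0.52, adjusted P = 0.375). Egr2 and Nr4a1, in which this library was not high, had log2FC of 0.94 (adjusted P = 0.138) and -0.87 (adjusted P = 0.178). This library deviated from its group mean by 0.15 for log2 total counts. For the mean log2 CPM of each marker list it deviated by between -0.40 (macrophage) and 0.22 (blood and neutrophil). The median deviation of the 9 members, on which the library was singled out, was 1.14. The part of library size and of cell types in the result was not tested.

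**Figure D2:**
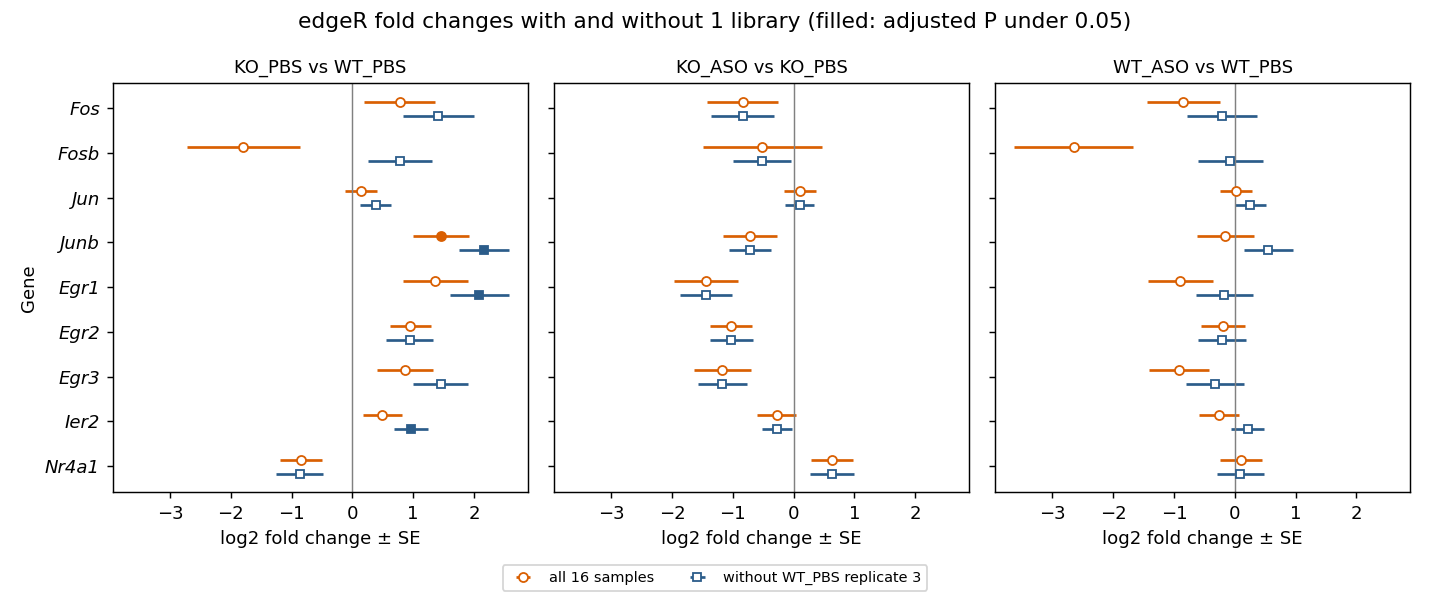
log2FC ± SE of the 9 genes in 3 comparisons, from all 16 samples (circles) and without WT_PBS replicate 3 (squares), with filled symbols for an adjusted P value under 0.05. Leaving out this library moves Fosb from -1.79 to 0.78 in KO_PBS vs WT_PBS and from -2.65 to -0.08 in WT_ASO vs WT_PBS, and leaves KO_ASO vs KO_PBS nearly as it was.

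The comparison of KO_ASO with KO_PBS asked what lowering Dnm2 did in the knockout. In edgeR 0 of the 9 members passed the test, where 3.64% of all genes did. At an unadjusted P under 0.05 there were 3, the Egr genes, where 17.7% of all genes reached it. Egr1 had a log2FC of -1.44 (SE 0.53, adjusted P = 0.162), and its mean was 17.3 ± 9.22 against 46.8 ± 23.2 CPM (SD, n = 4 each). Egr2 had a log2FC of -1.02 (SE 0.35, adjusted P = 0.117), and Egr3 a log2FC of -1.17 (SE 0.47, adjusted P = 0.189). KO_ASO and KO_PBS overlapped for all 9 members, where 4.04% of all genes had KO_ASO wholly above KO_PBS and 6.34% wholly below. Fos had a log2FC of -0.84 (SE 0.58, adjusted P = 0.510) and Junb a log2FC of -0.72 (SE 0.45, adjusted P = 0.446). Fosb and Ier2 had log2FC of -0.51 (SE 0.97) and -0.28 (SE 0.33), and Jun one of 0.10 (SE 0.26). Nr4a1 had a log2FC of 0.63 (SE 0.35, adjusted P = 0.372). The median log2FC of the members was -0.72, against 0.01 over all genes tested. DESeq2 called 0 members, and limma-voom with sample quality weights called 2, Egr1 (log2FC of -1.71, adjusted P = 0.0170) and Egr2 (log2FC of -1.08, adjusted P = 0.0425), where it called 7.93% of all genes. This comparison shares the KO_PBS samples with the one before, so that a high KO_PBS sample enters both.

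Between WT_ASO and WT_PBS, 0 of the 9 members passed the test in edgeR, DESeq2 or limma-voom, and 0.00668% of all genes did in edgeR. Fosb alone had an unadjusted P under 0.05, which 6.45% of all genes had, with a log2FC of -2.65 (SE 0.98, adjusted P = 0.736). Without WT_PBS replicate 3 its log2FC was -0.08 (SE 0.53, adjusted P = 0.989). Egr3 had a log2FC of -0.92 (SE 0.50, adjusted P = 0.809), Egr1 a log2FC of -0.90 (SE 0.54, adjusted P = 0.831) and Fos a log2FC of -0.84 (SE 0.60, adjusted P = 0.861). For these 3 the values without that library were -0.33 (SE 0.48), -0.17 (SE 0.47) and -0.20 (SE 0.58). Ier2, Egr2, Junb, Jun and Nr4a1 had log2FC between -0.26 and 0.11, with adjusted P values of 0.941 or more.

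Between KO_ASO and WT_PBS, 0 members passed the test, where 0.0401% of all genes did, and Fosb alone had an unadjusted P under 0.05, which 8.22% of all genes had (log2FC of -2.31, SE 0.96, adjusted P = 0.556). Leaving out WT_PBS replicate 3, Fosb stood at a log2FC of 0.27 (SE 0.53, adjusted P = 0.944), 0 members passed (0.0265% of genes), and Junb (log2FC of 1.45, SE 0.41, adjusted P = 0.382) and Ier2 (log2FC of 0.69, SE 0.28, adjusted P = 0.611) had an unadjusted P under 0.05. Between KO_ASO and WT_ASO, 0 members passed (0.0735% of all genes), and 0 had an unadjusted P under 0.05 (15.1%). In the fit without WT_PBS replicate 3 still 0 passed (0.0265% of genes), and Junb had an unadjusted P under 0.05 (log2FC of 0.90, SE 0.36, adjusted P = 0.271). DESeq2 and limma-voom, on all samples, also called 0 members in both comparisons. For the interaction, which asks whether the response to ASO1 differed by genotype, 0 members passed (0.575% of all genes) and 0 had an unadjusted P under 0.05 (12.7%), with adjusted P values from 0.525 to 0.998, and both other tools called 0. Leaving out WT_PBS replicate 3, still 0 members passed the interaction test (0.457% of genes), and Junb alone had an unadjusted P under 0.05 (log2FC of -1.27, SE 0.53, adjusted P = 0.337). The interaction for Fosb turned from 2.14 (SE 1.37) to -0.44 (SE 0.72) when that library was left out. Asked whether any of the 4 group means differed, edgeR called 1 of 9 members, Egr1 (adjusted P = 0.0434), where 12.4% of all genes were called. DESeq2 and limma-voom each called 4, Junb, Egr1, Egr2 and Egr3, where they called 20.3% and 17.4% of all genes. In edgeR Fosb, Junb, Egr2 and Egr3 also had an unadjusted P under 0.05 in this test, a level that 27.5% of all genes reached. This call for Egr1 held in leave-one-out fits only without WT_PBS 3, WT_ASO 4, KO_PBS 4 or KO_ASO 4. It was also lost with no filter on low counts, where edgeR called Egr2 alone of the members and 5.21% of 29730 genes. When WT_PBS replicate 3 was left out, there were 3 members called, Junb (adjusted P = 0.00693), Egr1 (adjusted P = 0.0103) and Egr3 (adjusted P = 0.0295), where 10.9% of genes were, while Fosb went from an unadjusted P of 0.0383 to 0.300 (edgeR adjusted P = 0.512). That library was singled out by the members' own values, so this count cannot be read against the share of all genes.

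Mice of the same group differed more in the members than in most genes. The pooled SD of log2 CPM within groups (prior count 2) had a median of 0.69 over the 9 members and 0.23 over all genes tested. It was 1.31 for Fosb, at percentile 99.6 of all genes, 0.91 for Fos, at percentile 98.2, and 0.77 for Egr1, at percentile 96.5. Egr3 and Junb both stood at 0.69, Nr4a1 at 0.54, Ier2 at 0.51 and Egr2 at 0.49. Jun was the steadiest at 0.41, at percentile 77.6. Counting error adds to this measure in genes with few reads, such as Egr2 and Egr3. Their biological coefficient of variation in edgeR was 1.14 and 1.42 times that of genes of their level, against 3.61 times for Fosb, 3.40 for Egr1 and 3.16 for Fos. Without WT_PBS replicate 3 the SD of Fosb was 0.77, at percentile 96.3, that of Egr1 0.65, at percentile 93.1, and that of Fos 0.82, at percentile 97.2.

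**Figure D3:**
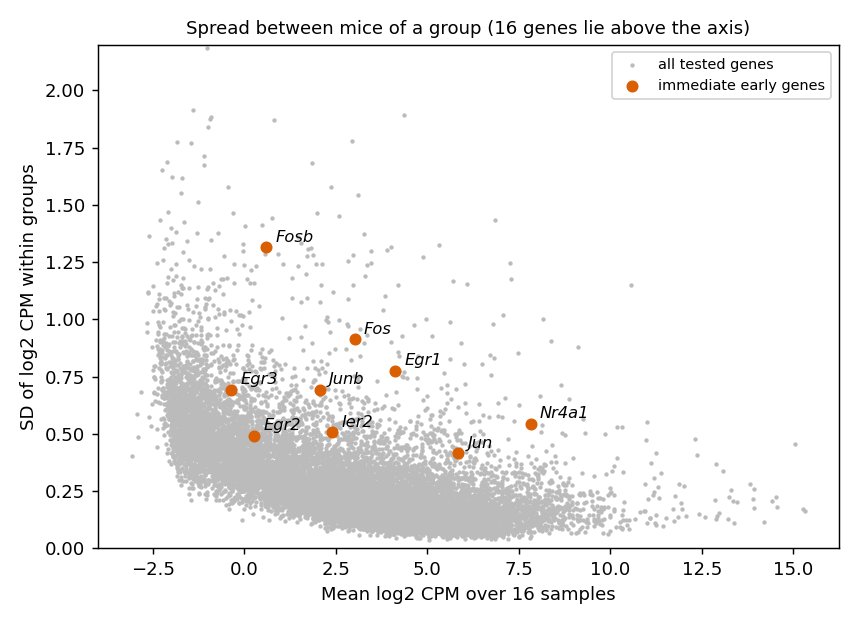
SD of log2 CPM within groups against mean log2 CPM over 16 samples, with 1 grey point per tested gene and the 9 genes in orange; 16 genes lie above the axis. The members range from 0.41 (Jun) to 1.31 (Fosb), and the median of all tested genes is 0.23.

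The spread ran through several members at once. WT_PBS replicate 3 was the highest of its group for Fos, Fosb, Jun, Junb, Egr1, Egr3 and Ier2, and not for Egr2 and Nr4a1. KO_PBS replicate 4 was the lowest of its group for 7 members, all but Fos and Jun, and WT_PBS replicate 4 for 6. KO_PBS replicate 2 was the highest for 5 members and KO_PBS replicate 1 for the other 4 (Fos, Egr1, Egr2 and Egr3). In the groups given ASO1 no sample was the highest for more than 4 members.

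**Figure D4:**
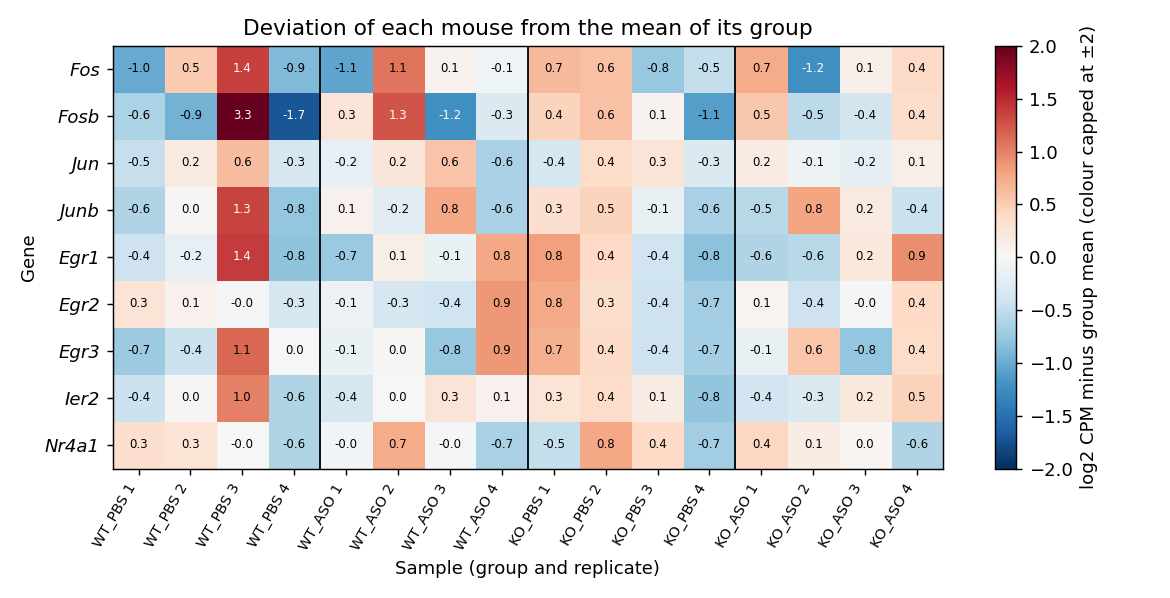
log2 CPM of each gene minus the mean of its group, in each of the 16 samples, with red for higher and blue for lower. The column of WT_PBS 3 is red for 7 of 9 genes, with Fosb at 3.27, and the column of KO_PBS 4 is blue throughout.

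With group means removed, 31 of the 36 pairs of members had a positive Pearson r over the 16 samples, with a median of 0.44. Over a fixed set of 998 other genes the median r of pairs was -0.002. With group means alone removed, Egr1 and Ier2 were the 1 pair of 36 that passed the within-group permutation test (r = 0.88, adjusted P = 0.00360; Spearman's rho = 0.91, adjusted P = 0.00468, over 36 pairs), and r was 0.77 without the 2 samples farthest from the median of Egr1. Fos and Egr1 had r = 0.69 (permutation P = 0.0110, adjusted P = 0.121; rho = 0.62, permutation P = 0.0253, adjusted P = 0.182), which became 0.50 without the 2 farthest samples. Fosb and Ier2 had r = 0.68 (permutation P = 0.0404, adjusted P = 0.132; rho = 0.51, permutation P = 0.0689, adjusted P = 0.238), which became 0.25 without the 2 farthest, so it rests on those samples. The lowest r was that of Jun and Egr2, at -0.33 (permutation P = 0.286, adjusted P = 0.422; rho = -0.30, permutation P = 0.291, adjusted P = 0.411), and it became -0.03 without the 2 farthest. Nr4a1 had the lowest median r with the other members, 0.18, and Egr1 the highest, 0.64. Without WT_PBS replicate 3 the median over the 36 pairs was 0.32, and that of Egr1 with Ier2 was 0.81.

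**Figure D5:**
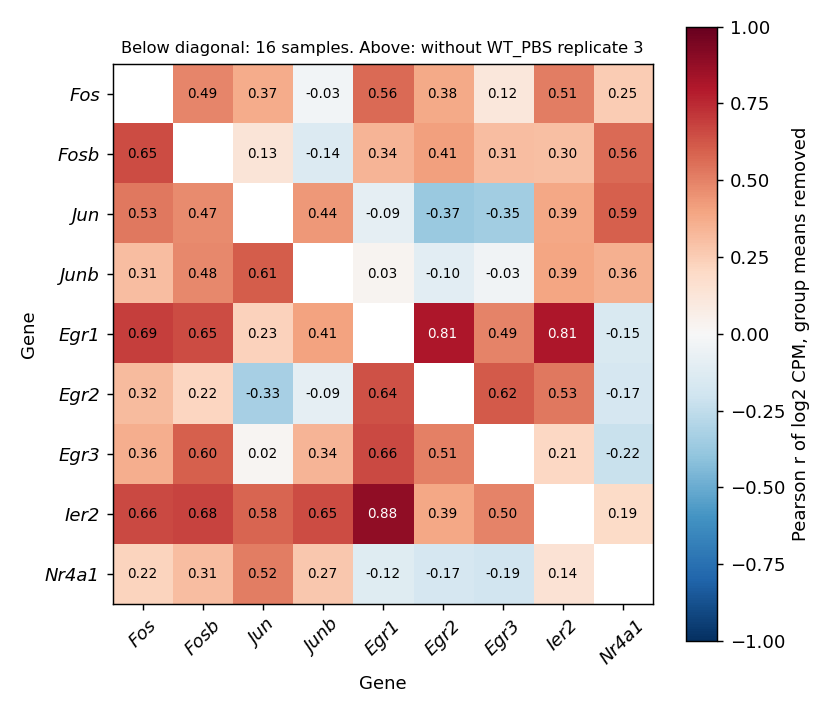
Pearson r between members of log2 CPM with group means removed, over all 16 samples below the diagonal and without WT_PBS replicate 3 above it. Egr1 and Ier2 stand at 0.88 and 0.81, and Jun with Egr2 is the lowest pair below the diagonal, at -0.33.

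The genes whose pattern between mice was most like the mean of the members, by Pearson r over 16 samples with group means removed, were Ccdc61 (r = 0.90), Cebpb (0.87), Msx1 (0.86), Gm12182 (0.85), Card19 (0.84), Pmm1 (0.83), Ndufc2 (0.82), Midn (0.81), Tcap (0.81) and Uqcr11 (0.81). They are the highest of 14951 genes, so their r is a description. Leaving out WT_PBS replicate 3, they ranged from 0.61 (Midn) to 0.83 (Ccdc61). Each was higher in WT_PBS replicate 3 than in the other WT_PBS samples, for example Cebpb at 4.75 CPM against at most 2.64.

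Other rapid-response genes, a list of 38 of which 36 were tested, held 6 genes that rose and 1 that fell in KO_PBS vs WT_PBS in edgeR, with a median log2FC of 0.29 against -0.01 over all genes. Of all genes 7.43% were called higher and 5.12% lower in this comparison. This list and the gene lists that follow were chosen with earlier results of these data known. Their counts beside the shares of all genes are therefore a description. The counts were 7 higher and 1 lower with DESeq2, and 11 higher and 1 lower with limma-voom, which called more of all genes too. Atf3, a stress-induced partner of Jun, rose by a log2FC of 1.60 (SE 0.35, adjusted P = 0.00745), and the 4 KO_PBS samples, at 20.2 to 34.8 CPM, were above the WT_PBS samples, at 4.77 to 13.7 CPM. Ccn2, which codes for a matricellular growth factor, rose by a log2FC of 1.42 (SE 0.38, adjusted P = 0.0249), and Gem, a small GTPase gene, by a log2FC of 1.04 (SE 0.29, adjusted P = 0.0253). Fosl1, another gene of the Fos family, was near absent in WT_PBS (0 to 3 reads) and had 29 to 56 reads in KO_PBS (edgeR adjusted P = 0.00298), and its exons share 1163 bases with Ccdc85b on the other strand. Between KO_ASO and KO_PBS, where 0.802% of all genes were called higher and 2.83% lower, 0 genes of this list rose and 2 fell in edgeR, namely Arc, an activity-regulated gene, by a log2FC of -2.19 (SE 0.39, adjusted P = 0.00549), and Fosl1 (0 to 6 reads in KO_ASO, adjusted P = 0.0268). In WT_ASO vs WT_PBS 0 genes passed in edgeR, DESeq2 or limma-voom, and 2 had an unadjusted P under 0.05, Cebpd (log2FC of 0.99, adjusted P = 0.687) and Errfi1 (log2FC of 0.38, adjusted P = 0.771). The counts in KO_PBS vs WT_PBS were 5 higher and 0 lower when WT_PBS replicate 3 was left out, where 9.64% of all genes were called.

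Feedback inhibitors shut immediate early signalling down, as phosphatases of MAP kinases (Dusp), co-repressors of Egr factors (Nab) and mRNA decay factors (Zfp36). Of the 20 on the list, 5 rose and 1 fell in KO_PBS vs WT_PBS in edgeR, beside 7.43% and 5.12% of all genes. By limma-voom 6 were higher and 2 lower, where it called 18.2% of all genes. Nab2, a co-repressor that Egr factors are known to induce, measured 11.9 to 16.8 CPM in KO_PBS. It measured 4.72 to 5.68 CPM in KO_ASO, 2.71 to 5.08 in WT_PBS and 2.52 to 3.67 in WT_ASO. It rose by a log2FC of 1.84 (SE 0.19, adjusted P = 1.34e-05) and fell in KO_ASO vs KO_PBS by a log2FC of -1.38 (SE 0.18, adjusted P = 0.000704), and neither pair of groups overlapped. Exons of Nab2 share 40 bases with Stat6 and 151 with Nemp1 on the other strand. Dusp4 rose by a log2FC of 2.42 (SE 0.31, adjusted P = 0.000112), Dusp5 by a log2FC of 2.22 (SE 0.32, adjusted P = 0.000290) and Dusp2 by a log2FC of 3.30 (SE 0.52, adjusted P = 0.000691). In edgeR the same 4 genes were those of the list that fell in KO_ASO vs KO_PBS, where 2.83% of all genes fell, Dusp4 by a log2FC of -1.72 (SE 0.30, adjusted P = 0.00468), Dusp5 by a log2FC of -1.77 (SE 0.31, adjusted P = 0.00485) and Dusp2 by a log2FC of -2.04 (SE 0.47, adjusted P = 0.0279). The median log2FC of the list was 0.01 in the first comparison and -0.08 in the second, which share the KO_PBS samples. In WT_ASO vs WT_PBS 0 passed in edgeR, 6 of 20 had an unadjusted P under 0.05 (6.45% of all genes), and DESeq2 called 1 (0.221% of all genes). The smallest P values there were those of Spred2 (log2FC of -0.60, adjusted P = 0.386) and Zfp36 (log2FC of 0.85, adjusted P = 0.687).

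Of 32 upstream kinases and transcription factors, 0 rose and 5 fell in KO_PBS vs WT_PBS in edgeR, beside 7.43% and 5.12% of all genes. With DESeq2 7 fell and with limma-voom 8, where they called 16.9% and 18.2% of all genes. Among the 5 in edgeR, Mapk9, which codes for a Jun kinase, had a log2FC of -0.62 (SE 0.08, adjusted P = 0.000164), Rps6ka1 a log2FC of -0.75 (SE 0.17, adjusted P = 0.00774) and Map2k4 a log2FC of -0.37 (SE 0.09, adjusted P = 0.0162). In KO_ASO vs KO_PBS edgeR called 1 of the list, Mapk9, which rose by a log2FC of 0.44 (SE 0.08, adjusted P = 0.00859), and DESeq2 and limma-voom each called 3 higher and 1 lower, where edgeR called 3.64%, DESeq2 7.06% and limma-voom 7.93% of all genes. In WT_ASO vs WT_PBS 0 passed in edgeR, DESeq2 or limma-voom, and 0 had an unadjusted P under 0.05 in edgeR. The smallest P values were those of Elk3 (log2FC of -0.33, adjusted P = 0.781) and Crtc1 (log2FC of -0.23, adjusted P = 0.802). Of 16 partners of Fos and Jun 15 were tested, and those that passed in edgeR were Fosl1 and Atf3 in KO_PBS vs WT_PBS and Fosl1 in KO_ASO vs KO_PBS, which are also on the rapid-response list. In KO_PBS vs WT_PBS edgeR called 2 of the partners higher and 1 lower without WT_PBS replicate 3, where it called 9.64% of all genes. For KO_PBS vs WT_PBS DESeq2 called 2 higher and 1 lower and limma-voom 4 higher and 1 lower, where they called 16.9% and 18.2% of all genes. For KO_ASO vs KO_PBS they called 0 and 1 higher and 2 lower each, where they called 7.06% and 7.93% of all genes. In WT_ASO vs WT_PBS 0 partners passed in edgeR, DESeq2 or limma-voom, and 1, Atf4, had an unadjusted P under 0.05 (log2FC of 0.21, adjusted P = 0.755).

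Genes of the heat shock response, which is induced by protein damage, were followed beside the members. Of 16 tested, 7 rose and 0 fell in KO_PBS vs WT_PBS in edgeR, beside 7.43% and 5.12% of all genes, among them Hspb1 by a log2FC of 1.51 (SE 0.19, adjusted P = 9.56e-05), Cryab by a log2FC of 1.23 (SE 0.23, adjusted P = 0.00256), Hspb8 by a log2FC of 0.79 (SE 0.16, adjusted P = 0.00382) and Hsph1 by a log2FC of 0.41 (SE 0.10, adjusted P = 0.0181). The count was 6 higher and 0 lower without WT_PBS replicate 3, where 9.64% of all genes were called. Hspb1 and Hspb8 also fell in KO_ASO vs KO_PBS, by log2FC of -1.06 (SE 0.19, adjusted P = 0.00521) and -0.64 (SE 0.16, adjusted P = 0.0346). In WT_ASO vs WT_PBS 0 passed in edgeR, DESeq2 or limma-voom, and 1, Hsp90ab1, had an unadjusted P under 0.05 (log2FC of 0.26, adjusted P = 0.736), followed by Hsph1 (log2FC of -0.17, adjusted P = 0.831).

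Markers of several cell types moved with the knockout. In edgeR all 9 macrophage markers rose in KO_PBS vs WT_PBS, where 7.43% of all genes did, and 7 of 9 fell in KO_ASO vs KO_PBS, where 2.83% did. Their summed level was 125.0 to 372.8 CPM in KO_PBS. It was 51.2 to 80.4 CPM in KO_ASO, against 47.7 to 77.1 CPM in WT_PBS and up to 109.5 CPM in WT_ASO, so the KO_PBS samples did not overlap any other group. Of 6 fibroblast markers 2 rose in the knockout (1299 to 2288 CPM summed in KO_PBS, 1034 to 1366 in WT_PBS), and of 5 satellite cell markers 1 rose and 3 fell. Of 6 smooth muscle and pericyte markers 1 rose and 2 fell, and of 7 fast myofibre markers 3 fell and 0 rose, where 5.12% of all genes fell. Among 8 endothelium, 6 blood and neutrophil, 6 nerve and Schwann cell and 5 fat markers, 0 rose and 0 fell. Leaving out WT_PBS replicate 3, 9.64% of all genes were called, against 12.6% in the reported fit. The counts were then 7 of 9 for macrophage and 0 of 6 for fibroblast markers, and 0 higher and 2 lower for satellite cell markers. They were then 1 higher and 0 lower for smooth muscle and pericyte markers, and 2 lower for fast myofibre markers. Between mice of a group, the mean of the members had a Pearson r of -0.37 with the mean of the macrophage markers and of -0.05 with log2 total counts, over 16 samples as a description. With the other marker lists r ran from -0.28 (fat) to 0.11 (smooth muscle and pericyte). For the gene lists it was 0.69 (partners of Fos and Jun), 0.64 (other rapid-response genes), 0.47 (feedback inhibitors), 0.23 (heat shock response) and -0.23 (upstream kinases and transcription factors). The part of these cells and of the myofibre markers in the values of Junb, Egr1 and Egr2 was not tested.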

How the data were processed

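The members and the gene lists were chosen with earlier results of these data known. The table that the authors deposited holds raw counts of reads, with a row per Ensembl gene and a column per sample. Cutadapt 1.10, STAR 2.5.3a, Bowtie2 2.2.8 and HTSeq 0.6.1p1 are listed in the submitters' processing notes beside GRCm38. The sources used here give neither the strand setting nor the annotation release. Symbols, positions and exon lengths came from GENCODE for GRCm38. Counts were tested with edgeR 4.0.16 (R 4.3.3, filterByExpr by group, TMM, robust quasi-likelihood fit with 1 mean per group over 16 samples), which took out 14770 of 29730 genes. The Benjamini-Hochberg adjustment ran over 14960 genes within a comparison, with a threshold of 0.05, and SE is the size of log2FC over the square root of F. The common biological coefficient of variation was 18.7%. DESeq2 1.42.0, limma-voom (limma 3.58.1), other scalings, no filter, the compared groups alone, a replicate block and leave-one-out fits were alternatives. The fit and the pair test were tested on simulated data. Spread and pairs used log2 CPM with a prior count of 2, and pairs 100000 permutations within groups. From each list the genes named were at most 4 past the threshold by smallest P, or otherwise the 2 with the smallest P, in the 3 comparisons described in full; some genes that this rule names are not reported here. No 2 samples of a group agreed within sampling noise (lowest mean chi-square per gene 21.7).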

Additional observations from a re-analysis of the deposited data

Results flagged for a closer look

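Dixon's test of the highest or lowest of 4 samples was applied to the CPM of the 9 genes in 4 groups. Of the 36 gene and group combinations 3 were above its critical value. Chance alone marks about 1 in 20 where values are normally distributed, which was not tested for CPM. These flags hold for the CPM scale only, not for log2 CPM. Fosb in WT_PBS replicate 3, at 23.1 CPM, stood apart from the other WT_PBS samples by 0.964 of the range of the group. Egr1 in the same library, at 39.4 CPM, stood apart by 0.845 of the range. Egr2 in WT_ASO replicate 4, at 1.61 CPM, stood apart by 0.848 of the range, and Egr1 and Egr3 were also highest of their group in that mouse. The cause was not tested.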

How the results depend on the processing

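Members called in KO_PBS vs WT_PBS numbered 1 in the reported fit (12.6% of all genes called), 2 with DESeq2 (16.9%), 2 with library totals only (14.7%), 2 with the replicate block (15.5%), 4 with limma-voom (18.2%), 0 with no filter (4.92%), 0 with only the compared groups (14.3%), and 0 to 3 in leave-one-out fits. For KO_ASO vs KO_PBS the count was 2 with limma-voom (7.93%, against 3.64% in the reported fit) and 0 otherwise. For any difference among the 4 groups it was 4 with DESeq2 (20.3%), limma-voom (17.4%) or library totals (14.9%), 2 with the replicate block (15.6%), which called Junb and Nr4a1 and not Egr1, 1 with no filter (5.21%), which called Egr2 and not Egr1, and 0 to 3 leaving out 1 library. All 3 other comparisons of 2 groups and the interaction kept 0 under every alternative run. The replicate numbers did not meet the rule for pairs: same-numbered deviations had r from -0.08 to 0.44 (median 0.08), 11 of 24 over 0.1, although 13 of 16 samples correlated best with their own number, a hint from the data and not the design. The block called Junb and Nr4a1 (adjusted P = 0.0104) and raised the called pairs from 1 to 11, among them Fos with Egr1 (adjusted P = 0.0379) and Fosb with Ier2 (adjusted P = 0.0192), and leave-one-out gave 1 to 3 pairs. With limma-voom Fosb in KO_PBS vs WT_PBS was 0.16, Jun in KO_ASO vs KO_PBS -0.023 and Junb in WT_ASO vs WT_PBS 0.17, and with library totals Jun in WT_ASO vs WT_PBS was -0.048, each of the other sign. Leaving out 1 library gave log2FC of -2.17 to 0.78 for Fosb and -0.00010 to 0.38 for Jun in KO_PBS vs WT_PBS, -0.019 to 0.22 for Jun in KO_ASO vs KO_PBS, and between WT_ASO and WT_PBS -0.20 to 0.26 for Jun, -0.49 to 0.55 for Junb, -0.45 to 0.21 for Ier2 and -0.20 to 0.29 for Nr4a1. The cause of these moves was not tested. Egr3, Fosb and Egr2 rest on the fewest reads of the members, from 7, 11 and 21 a sample.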

Other observations

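Nr4a3, the close relative of Nr4a1, was high in 1 library that the members did not single out, a value chosen after it was seen. It measured 58.3 CPM in KO_ASO replicate 2 and 5.16 to 5.88 CPM in the other KO_ASO samples, where Nr4a1 stood at 259 CPM against 155 to 313 CPM. Nr4a2, the remaining gene of the family, likewise looked up after the values were seen, was also highest there, at 2.33 CPM against 0.570 to 0.766 CPM. Junb and Egr3 were also highest of their group in that mouse, and Fos, Fosb and Egr2 lowest.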
